A study of Mus musculus with 8 samples.

Results

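In MIN6 cells, an insulin-producing mouse insulinoma line, accessible chromatin was unevenly spread, and 1063 stretches of the genome held it at high density. These are the windows of 50 kb, laid end to end from the start of chromosomes 1 to 19 and X, that contained the midpoints of 8 or more ATAC-seq peaks in cells given an empty vector. They made up 2.94% (95% Wilson interval 2.77 to 3.12) of the 36118 windows that held a peak of any of the cells studied, and 53.15 Mb of sequence. The peak numbers of the empty vector list chose the windows, so those numbers describe them and support nothing further. The comparison list came from the same cells given a Klf4 expression plasmid. Klf4 is a zinc finger transcription factor that binds GC-rich and CACCC-type sequences, and the series set out to characterise how its misexpression alters accessibility across the beta cell genome.

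ATAC-seq marks places where a transposase can insert adapters into DNA, that is, promoters, enhancers and other stretches not wrapped tightly into chromatin. Such sites are not scattered evenly: they gather in gene-rich chromosome segments, around genes that a cell type keeps active, and along tandem arrays of genes that RNA polymerase III transcribes, such as those of 5S ribosomal RNA and transfer RNA. In beta cells, genes for insulin, for the transcription factors that maintain the cell type and for secretory granules are known to have several enhancers near them. MIN6 cells were derived from a tumour of mice carrying a viral T antigen under the insulin promoter, and they divide in culture.

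Each group had 4 ATAC-seq libraries of MIN6 cells labelled wild type in genotype, transfected for 48 hours with Lipofectamine 3000. The control plasmid was pcDNA 3 Empty Vector and the other plasmid was pGloMyc-Klf4, so the named vectors differ as well as the insert. The values came from 2 lists of broad peaks, 1 merged list for each group, with 100049 empty vector peaks and 128499 Klf4 peaks on the chromosomes used. With 1 list per group there is no spread over samples, no difference between the lists could be tested, and the sequencing depth behind each list is unknown. Intervals on shares below cover counting error only. Cell type could be checked only through accessibility, and peaks at insulin granule and endocrine transcription factor genes are described with their groups.

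The promoters and microRNAs on which several of the descriptions below turn are shown first. The promoter sequences run from 250 bases before to 50 bases after the start of a gene and are RefSeq sequences of GRCm38.p6, given in the direction of transcription. Capitals mark CACCC or its reverse complement GGGTG, the core letters of Klf-type sites, searched on both strands. The genes were chosen because their promoters lie in dense windows and under a peak of both lists: a beta cell transcription factor, a granule protein, a hormone receptor and a pair of immediate early genes.
Pdx1, chr5:147269847-147270146, plus strand: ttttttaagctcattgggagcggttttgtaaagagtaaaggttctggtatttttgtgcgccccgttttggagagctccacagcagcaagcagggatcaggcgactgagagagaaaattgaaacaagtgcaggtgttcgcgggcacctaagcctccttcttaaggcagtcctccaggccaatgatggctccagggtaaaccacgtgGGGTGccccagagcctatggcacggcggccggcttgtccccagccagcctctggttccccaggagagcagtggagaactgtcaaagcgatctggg
Chga, chr12:102554691-102554990, plus strand: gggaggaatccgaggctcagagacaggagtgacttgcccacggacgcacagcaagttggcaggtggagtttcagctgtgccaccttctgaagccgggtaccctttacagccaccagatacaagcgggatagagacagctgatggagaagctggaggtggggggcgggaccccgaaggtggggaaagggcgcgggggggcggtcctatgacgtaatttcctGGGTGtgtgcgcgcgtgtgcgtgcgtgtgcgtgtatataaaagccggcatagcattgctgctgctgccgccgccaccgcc
Glp1r, chr17:30901617-30901916, plus strand: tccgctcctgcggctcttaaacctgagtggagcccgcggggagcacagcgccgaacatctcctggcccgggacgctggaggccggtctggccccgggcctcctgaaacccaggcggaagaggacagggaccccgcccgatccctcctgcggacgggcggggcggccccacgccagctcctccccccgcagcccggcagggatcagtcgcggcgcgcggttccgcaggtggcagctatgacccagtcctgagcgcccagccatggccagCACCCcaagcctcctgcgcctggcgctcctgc
Fos, chr12:85473640-85473939, plus strand: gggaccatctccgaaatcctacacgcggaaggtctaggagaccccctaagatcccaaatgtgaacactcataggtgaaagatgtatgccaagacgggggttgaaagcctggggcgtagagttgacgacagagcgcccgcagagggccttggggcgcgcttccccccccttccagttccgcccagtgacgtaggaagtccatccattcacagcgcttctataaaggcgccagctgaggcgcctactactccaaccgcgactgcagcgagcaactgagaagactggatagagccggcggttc
Junb, chr8:84978699-84978998, minus strand: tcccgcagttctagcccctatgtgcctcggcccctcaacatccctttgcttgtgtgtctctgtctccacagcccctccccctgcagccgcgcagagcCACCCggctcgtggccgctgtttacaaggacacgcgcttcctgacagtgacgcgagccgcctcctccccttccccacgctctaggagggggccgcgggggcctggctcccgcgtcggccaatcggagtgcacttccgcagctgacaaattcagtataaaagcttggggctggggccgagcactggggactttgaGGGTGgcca
The Fos promoter held no such match and the Junb promoter held 2, while those of Pdx1, Chga and Glp1r held 1 each. G and C made up 55.3% of the Pdx1 promoter, 58.7% of the Fos promoter and 73.7% of the Glp1r promoter. A match is a run of letters and not evidence that a factor bound there.

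The microRNAs are those whose hairpins lie in dense windows and whose mature forms are abundant or well studied in endocrine, neural or epithelial cells. Sequences are mature RefSeq forms with the seed, bases 2 to 8, in capitals.
miR-9-5p: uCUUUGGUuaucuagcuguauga
miR-132-3p: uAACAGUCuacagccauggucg
miR-212-3p: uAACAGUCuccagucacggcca
miR-7a-5p: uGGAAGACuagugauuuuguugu
miR-152-3p: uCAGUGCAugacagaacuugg
miR-203-3p: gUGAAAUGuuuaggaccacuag
miR-338-3p: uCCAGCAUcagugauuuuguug
The miRNAs miR-132-3p and miR-212-3p shared 1 seed, and their hairpins lie in the same dense window. The other seeds were each held by a single miRNA of this set.

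Dense windows sat at the end of a falling series and not apart from the rest. There were 616 windows with 8 empty vector midpoints, 291 with 9 and 156 with 10 or more, of which 20 had 12 or more and the densest had 28. Just outside the threshold, 1177 windows held 7 midpoints. Windows with 7 had a median of 4576 bp covered by empty vector peaks and 5682 bp covered by Klf4 peaks, and windows with 8 had 5264.5 bp and 6539.5 bp. The dense windows held 9226 empty vector peaks, 9.22% of that list, with a median of 8 per window. Peaks covered from 2541 to 25796 bp of a dense window, with a median of 5569 bp, against a median of 2 peaks and 1329 bp in the other windows. In all, peaks of the empty vector list covered 11.7% of the bases in dense windows and 3.41% elsewhere.

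**Figure D1:**
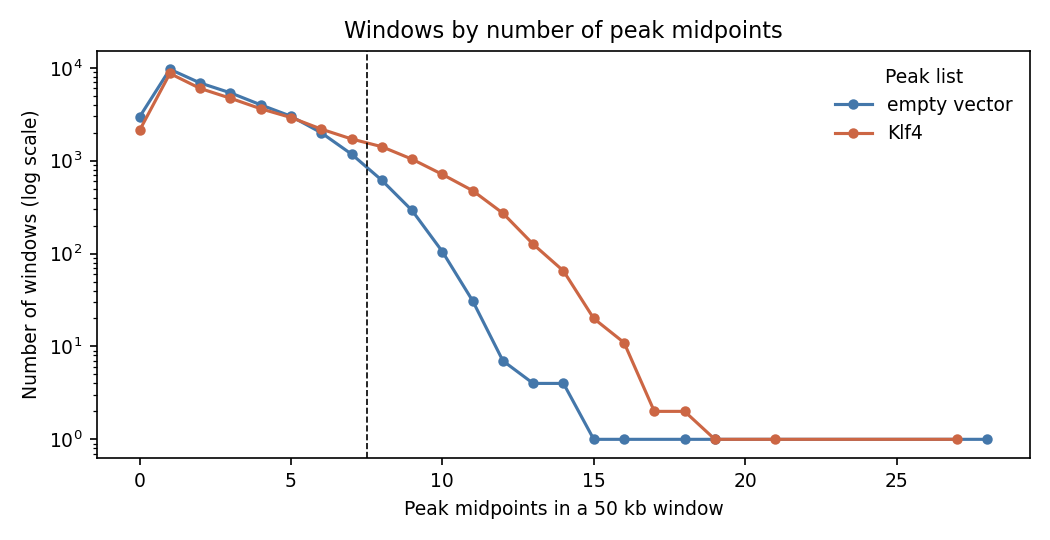
Number of 50 kb windows (log scale) by the number of peak midpoints they held, for the empty vector and the Klf4 list, with a dashed line at the threshold. The 1063 windows with 8 or more empty vector midpoints lie at the thin end of a falling series that reaches 28, and the Klf4 list has 4142 windows at 8 or more.

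The peaks of dense windows were of ordinary width and of lower enrichment over background. Their median width in the empty vector list was 543 bp, against 538 bp for peaks of other windows. The median fold enrichment, the authors' ratio of signal at the peak to its surroundings, was 3.64 in dense windows and 4.31 elsewhere. The median −log10 q-value, the peak caller's measure of confidence, went the other way, with 10.2 in dense windows and 8.70 elsewhere. In the Klf4 list the same windows had medians of 594 bp, 3.36 and 9.72, against 503 bp, 3.97 and 7.46 elsewhere. Neighbouring midpoints within a dense window lay a median of 5069 bp apart in the empty vector list and 4202 bp apart in the Klf4 list.

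Dense windows were unequally shared among chromosomes. Chromosome 11 held 137 of them, 7.33% of its windows with a peak, followed by chromosome 19 with 49 (5.46%), chromosome 15 with 77 (5.06%) and chromosome 5 with 91 (4.04%). Chromosome X held 7 (0.553%) and chromosome 3 held 29 (1.43%). Most stood alone: the windows formed 885 runs, of which 756 were a single window, 94 were 2 adjacent windows, 25 were 3, 9 were 4 and 1 was 8. In all, 307 windows (28.9%) had a dense neighbour.

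The longest run lay on chromosome 15, as did 3 of the 4 runs described here of the 9 with 4 windows, taken by their number of peaks. The run of 8 windows, chr15:99800001-100200000, held 72 empty vector and 76 Klf4 peaks covering 51157 and 53179 bp. It contains Lima1, which encodes an actin-binding protein, Larp4, an RNA-binding protein gene, and Dip2b. The run chr15:99550001-99750000 held 37 and 43 peaks and contains the aquaporin genes Aqp2, Aqp5 and Aqp6, the acid-sensing channel gene Asic1 and Smarcd1, a subunit gene of the BAF chromatin remodelling complex. The run chr15:98500001-98700000 held 36 and 43 peaks and contains Adcy6, an adenylyl cyclase gene, Cacnb3, a calcium channel beta subunit gene, and Ccnt1, a subunit gene of the elongation factor P-TEFb. Both of these lie, with the longest run, in the 70 windows of chromosome 15 that start at 97 Mb, where 31 windows (44.3%) were dense, 40.3% of all dense windows of the chromosome. Empty vector peaks of that segment had medians of 3.04 for fold enrichment and 10.1 for −log10 q, where the whole list had 4.24 and 8.82. The fourth run on the chromosome, chr15:75700001-75900000, held 37 and 41 peaks and contains Mafa, a transcription factor gene of mature beta cells, with Rhpn1, Zc3h3, Gsdmd and Eef1d. The run off chromosome 15, chr17:45500001-45700000, held 36 and 51 peaks covering 27288 and 38656 bp, and contains Nfkbie, an inhibitor of NF-kappa-B, the chaperone gene Hsp90ab1 and Slc29a1, a nucleoside transporter gene.

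Several of the densest windows lie in arrays of like genes or contain no coding gene. The window chr8:123550001-123600000 held 28 empty vector and 27 Klf4 midpoints and 29 genes for 5S ribosomal RNA, the smallest rRNA of the ribosome. Its neighbour, chr8:123600001-123650000, held 18 midpoints in both lists and 12 such genes. Over the run of 3 dense windows there, 56 empty vector and 57 Klf4 peaks covered 31274 and 36837 bp, and 53 of the empty vector peaks overlapped a Klf4 peak. The midpoints repeated at a near-constant step: the quartiles of the distance between neighbouring empty vector midpoints were 1659.5, 1721 and 1798 bp, and the median distance between the starts of neighbouring 5S genes was 1698 bp. All 48 annotated 5S genes of chromosome 8 lay in these windows, with 47 under an empty vector peak and 44 under a Klf4 peak. The 13 rRNA genes of the annotation that lay outside dense windows were under no peak of either list. As the rule chose windows by their empty vector peaks, this contrast is a description.

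A second array, of 3 windows from chr6:114500001 to chr6:114650000, held 48 empty vector and 55 Klf4 peaks. The first of its windows held 19 and 21 peaks and the next held 15 and 19, and neither contains an annotated gene. The third held 14 and 15 and overlaps Atg7, an autophagy gene. Its midpoints were 2343, 2461 and 2784.5 bp apart at the quartiles. The window chr9:3000001-3050000 held 16 peaks in both lists, which covered 51.6% and 51.0% of its bases, the highest cover of any dense window, and the only gene annotated in it is Mir101c. The window chr4:88750001-88800000 lies in the type I interferon cluster, overlaps Ifnz and a row of predicted genes, and held 14 and 12 peaks at quartile distances of 2874, 2932 and 2978 bp. Windows on chromosome 5 with the Speer genes, a testis-expressed rodent family, held 14 and 11 peaks at chr5:15600001-15650000 13 and 13 at chr5:14900001-14950000 and 12 and 11 at chr5:14950001-15000000. The 5S, interferon and Speer genes are families of like copies, among which reads may not be placed uniquely, and the part of read placement in these peak numbers was not tested. No genome sequence was used here, so repeats in the windows of chromosomes 6 and 9 were not examined.

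**Figure D2:**
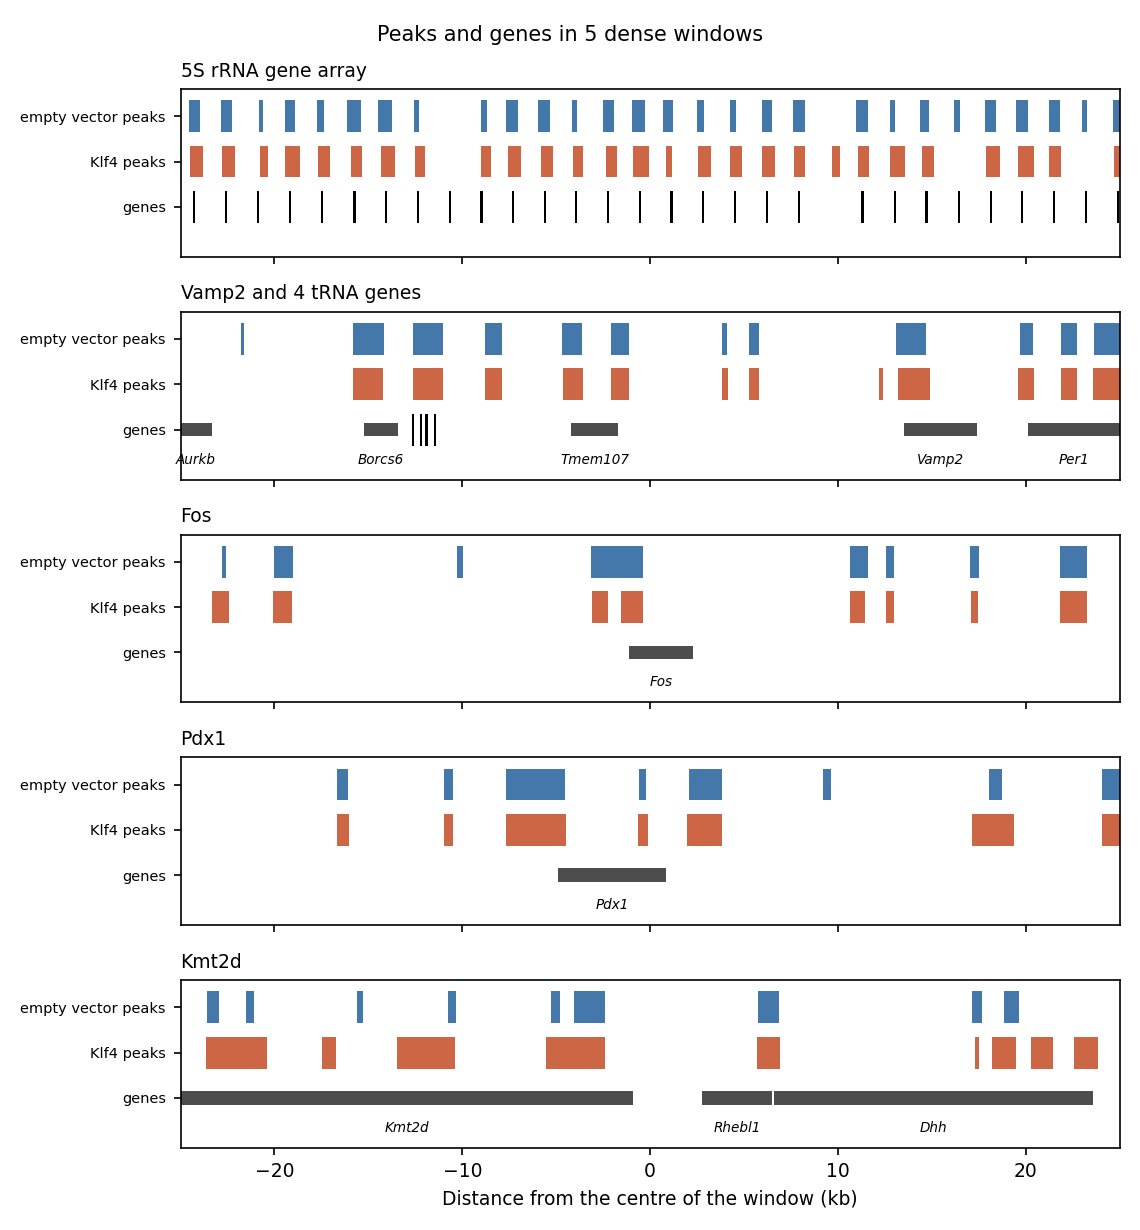
Peaks of both lists in 5 dense windows, drawn by distance from the centre of the window in kb, with protein-coding genes as thin grey bars and rRNA and tRNA genes as tall black bars under them. The array of 5S rRNA genes shows a ladder of narrow peaks at an even step, while the windows with Vamp2, Fos, Pdx1 and Kmt2d show peaks of unequal width and spacing.

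The other windows with 12 or more midpoints lie at genes outside such arrays. The window with the long noncoding RNA genes Malat1 and Neat1, whose transcripts locate to nuclear speckles and paraspeckles, held 13 peaks in both lists that covered 13387 and 14821 bp. The window of Vamp2, the vesicle SNARE of insulin granules, held 12 peaks in both lists over 11812 and 12015 bp, and also contains Per1, a clock gene, Aurkb, a mitotic kinase gene, Borcs6 and Tmem107 with 4 tRNA genes. The window of Wnt1 and Wnt10b, genes of secreted signalling proteins, and Arf3 held 13 and 10 peaks over 9804 and 10927 bp. Gse1 lies in a window of 14 and 14 peaks, Tuba1c in 13 and 14, Zfp516 in 12 and 13, Nup93, a nuclear pore gene, in 12 and 10, Gfod1 in 12 and 14, and the long noncoding RNA gene Mirt1 in 12 and 12. The window of Mylk2, Foxs1 and Dusp15 held 12 and 14 peaks over 5643 and 9779 bp.

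Dense windows were richer in genes than the other windows. They overlapped a mean of 1.81 protein-coding genes, against 0.98 elsewhere, and 97 (9.13%) overlapped none, against 32.9% elsewhere. Windows without any annotated gene numbered 28 (2.63%), against 16% elsewhere. In total 1781 of 21631 protein-coding genes (8.23%, 7.87 to 8.61) overlapped a dense window. A long gene overlaps more windows than a short one, and by gene midpoint the number was 1261 (5.83%). Of long noncoding RNA genes 688 of 12697 (5.42%) and of pseudogenes 133 of 9852 (1.35%) overlapped a dense window.

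Most endocrine transcription factor genes were outside dense windows, and those inside include factors that define the mature beta cell. Of 36 genes on the list, 6 (16.7%, 7.87 to 31.9) overlapped one, including Pdx1, Mafa, Foxa3, Fev and Tshz1, against 8.23% of all coding genes. By gene midpoint 4 of the 36 did, against 5.83% of all coding genes, and by gene start 3 of the 24 with a start in the promoter table. The median count of the densest window of a listed gene was 5, against 4 over all coding genes. Pdx1, required for pancreas formation and insulin gene transcription, lies in chr5:147250001-147300000, with 8 empty vector and 7 Klf4 peaks covering 8416 and 9900 bp. Its promoter, printed above, lay in a broad peak of 3164 bp with −log10 q 57.3 in the empty vector list and of 3183 bp with 46.9 in the Klf4 list. The window of Mafa held 9 and 10 peaks over 7895 and 11182 bp. The window of Fev, a serotonergic and endocrine progenitor factor, held 9 and 10 peaks over 10133 and 8177 bp, and that of Foxa3 held 8 and 11 over 6269 and 9007 bp. Genes of the list outside dense windows include Nkx6-1, whose densest window held 3 empty vector peaks, Neurod1 with 4, Nkx2-2 with 6 and Pax6 with 7.

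Several genes of granule proteins were in dense windows, and the insulin genes were not. Of 24 listed, 7 (29.2%, 14.9 to 49.2) overlapped a dense window, against 8.23% of all coding genes, and 6 did by gene midpoint, against 5.83%. The listed genes were longer, with a median of 27667.5 bp against 17329 bp over all coding genes. They were Chga and Scg2, which encode granins of the granule core, Pcsk2, a prohormone convertase, Ptprn and Ptprn2, transmembrane granule proteins, G6pc2, an islet glucose-6-phosphatase, and Ero1b, an oxidase of disulfide formation in proinsulin. Chga lay in a window of 10 and 13 peaks over 7883 and 10994 bp. Scg2 lay in a window of 9 and 7 peaks over 5112 and 3809 bp, with a promoter peak of −log10 q 53.0 and 42.2. The promoter peak of G6pc2 had 179 and 128 and that of Ero1b had 224 and 183, in windows of 8 and 7 and of 9 and 11 peaks. Ptprn lay in a window of 9 peaks in both lists, over 7789 and 8079 bp, and Pcsk2 in one of 8 and 9 over 6681 and 5402 bp. The densest window of Ins1 held 2 peaks in both lists, that of Ins2 held 3 and 7, and that of Iapp held 4 and 7.

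Genes of glucose sensing, excitation and exocytosis overlapped dense windows in 7 of 29 cases (24.1%), against 8.23% of all coding genes, and genes of exocytosis made up most of them. By gene midpoint 6 did, against 5.83%, and the median length of the listed genes was 47650 bp, against 17329 bp over all coding genes. The 7 were Vamp2, Rab3a, Rab27a, Rph3al and Syt7, all of vesicle docking and fusion, with Glp1r, the receptor of the incretin GLP-1, and Kcnh2, a voltage-gated potassium channel gene. Syt7, a calcium sensor of exocytosis, lay in a window of 10 and 16 peaks over 6698 and 10084 bp. Rab3a lay in one of 8 and 11 over 8111 and 10375 bp. Glp1r lay in a window of 9 and 7 peaks over 5912 and 5207 bp, and its promoter peak had −log10 q of 15.6 and 19.2 in the 2 lists. Outside dense windows, Abcc8, a subunit gene of the K-ATP channel, had a densest window of 7 and 10 peaks, and Slc2a2, the GLUT2 gene, of 7 and 8.

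Immediate early genes, which are transcribed within minutes of a stimulus and have short gene bodies, were in dense windows in 8 of 22 cases (36.4%, 19.7 to 57.0), against 8.23% of all coding genes. By gene midpoint 7 were, against 5.83%, and the median length of the listed genes was 4020.5 bp. They were the AP-1 subunit genes Fos, Fosb, Fosl1 and Junb, with Ier3, Ier5, the antiproliferative gene Btg2 and Zfp36, whose product destabilises mRNAs. All 8 windows also held 8 or more Klf4 midpoints, a number that 86.9% of all dense windows and 11.5% of all windows with a peak reached, so the count is near that of dense windows in general. The window of Junb held 9 peaks in both lists over 10305 and 11325 bp, and its promoter peak was 2803 bp wide in the first list and 4359 bp in the second. The window of Fos held 8 peaks in both lists over 7684 and 6909 bp. Its promoter lay in 1 empty vector peak of 2760 bp, and in the Klf4 list that stretch held 2 peaks of 852 and 1162 bp, the latter over the promoter. Fosb had 9 and 11 peaks over 7902 and 9593 bp, and Ier5 had 8 and 13 over 7504 and 10246 bp. Egr1, Jun and Atf3, of the same list, had densest windows of 6, 5 and 6 empty vector peaks.

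Most other lists had few or no members in dense windows, and the share over all coding genes was 8.23%. None of 23 exocrine and ductal genes and none of 39 Hox genes overlapped one, with median densest windows of 3 and 2 peaks. Of 22 markers of muscle, blood, liver, neurons and stroma only Col1a1 did, and of 26 Klf and Sp genes only Sp2, in a window of 8 and 11 peaks over 5219 and 8300 bp. Klf4 itself lay in a window of 4 empty vector and 3 Klf4 peaks. Among large families, 1 of 1110 olfactory receptor genes, none of 355 vomeronasal receptor genes and none of 42 beta-defensin genes were in a dense window. Cytosolic ribosomal protein genes were in one in 10 of 80 cases (12.5%) and Zfp zinc finger genes in 12 of 397. Histone genes, which lie in clusters and differ little in sequence within a class, were in one in 21 of 67 cases (31.3%), but these share 4 windows, 3 of them on chromosome 13.

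**Figure D3:**
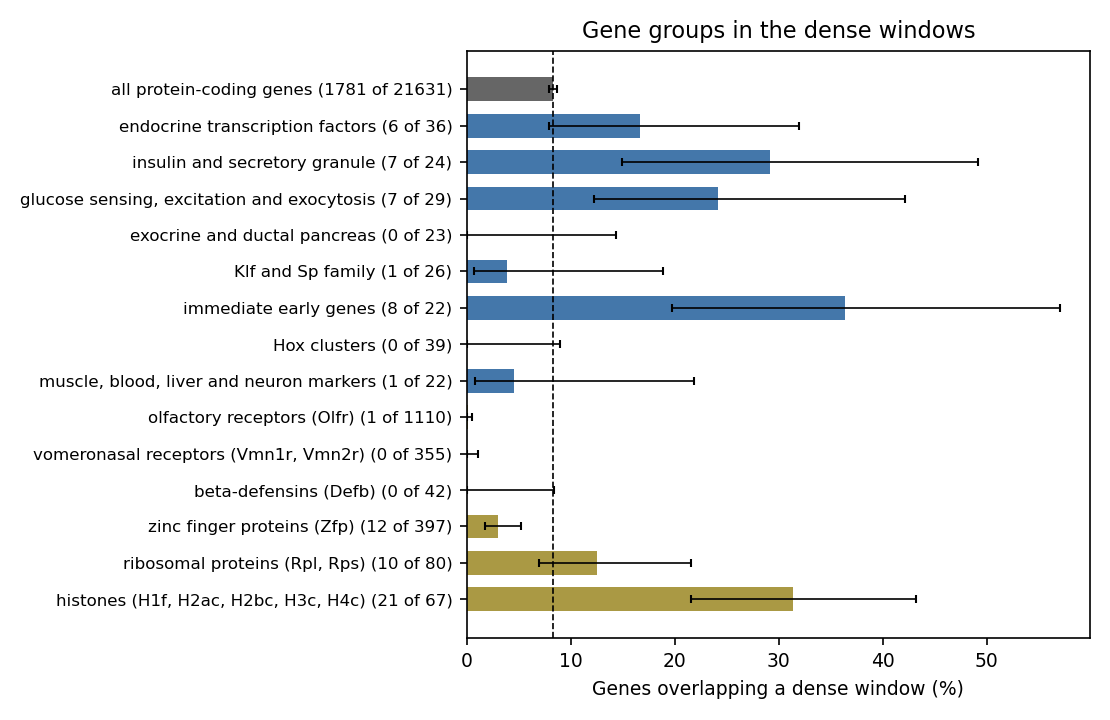
Percent of the protein-coding genes of each list or family that overlap a dense window, with 95% Wilson intervals and the numbers of genes, beside the value over all coding genes (8.23%). Lists are in blue and families by symbol in ochre; immediate early genes (36.4%) and histones (31.3%) have the highest shares.

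Transfer RNA genes formed another group. Of 408, 64 (15.7%) lay in 12 dense windows, against 5.87% of all annotated genes (4.65% by gene midpoint). Of these tRNA genes 49 (76.6%) were under an empty vector peak and 45 (70.3%) under a Klf4 peak. Of the 344 others, 57.8% and 56.4% were. The rule chose windows by their empty vector peaks, so these shares under a peak are given as a description. The share of dense windows was 7.5% among the 160 windows with any tRNA gene, 13.8% among the 58 with 2 or more and 18.4% among the 38 with 4 or more. The window chr13:23400001-23450000 held 17 tRNA genes and chr13:23500001-23550000 held 13, both in the large tRNA and histone region of chromosome 13. The window chr11:69000001-69050000 held 7 tRNA genes, all under peaks of both lists.

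Hairpins of 96 of 1228 annotated miRNAs (7.82%, against the 5.87% of all genes) lay in dense windows. There, 26 (27.1%) were under an empty vector peak and 37 (38.5%) under a Klf4 peak, against 13.2% and 18.0% elsewhere. Since the rule used the empty vector peaks, these shares under a peak are also a description. The shared window of Mir132 and Mir212, a pair induced by CREB in neurons, held 10 and 13 peaks over 7634 and 10409 bp, and both hairpins lay under a peak with −log10 q of 84.4 and 70.8. The window of Mir9-1, a source of miR-9, held 9 and 13 peaks over 5474 and 9149 bp, and the hairpin was under peaks of −log10 q 8.09 and 13.3. Mir203, known from epithelial differentiation, lay in a window of 8 and 12 peaks over 6273 and 12489 bp. Mir152 lay in one of 8 and 11 over 7380 and 9211 bp. The hairpin of Mir7-2, a source of miR-7a, the abundant islet miRNA, was under no peak in its window of 8 and 7 peaks. The hairpin of Mir338 was under a peak of the Klf4 list alone, with −log10 q 5.17. The window of Meg3, the maternally expressed noncoding RNA of an imprinted locus, held 8 and 9 peaks over 4450 and 5554 bp and contained 16 miRNA hairpins, of which 3 were under a peak of each list.

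Peaks in dense windows were mostly not at promoters. Of the empty vector peaks of dense windows 10.9% (981 of 8984, leaving out chromosome 18) overlapped a promoter of a coding or noncoding gene, against 12.2% elsewhere. In the Klf4 list both shares were 10.7%. A promoter of a coding gene was present in 58.5% of dense windows and in 31.3% of the others. Within dense windows, empty vector peaks at promoters were wider than the rest, with medians of 1103 and 502 bp. They had median −log10 q of 57.7 and 8.57 and median fold enrichment of 5.02 and 3.50. The order was the same elsewhere, with 1102 and 491 bp, 66.4 and 7.38, and 6.41 and 4.10. The rule chose windows by their empty vector peaks, so the shares of promoters under a peak are given as a description. Promoters of coding genes in dense windows lay under an empty vector peak in 76.0% of 1336 cases, against 58.7% of the 19676 others. They lay under a Klf4 peak in 82.6%, against 65%. Their median GC content was 60.7% against 56.3%, and the median ratio of observed to expected CpG was 0.677 against 0.564.

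The letters CACCC, on either strand, were in 68.3% of promoters of coding genes in dense windows and in 59.8% of all 21012 such promoters. The Sp-type box GGGCGG was in 59.8% and 46.6%, and TATAAA in 7.26% and 12.7%. The AP-1 site TGACTCA was in 4.64% of promoters in dense windows and 4.69% of the other promoters. Base composition differs between the sets, and among promoters under an empty vector peak alone the median GC content was 62.7% in dense and 61.7% in other windows. In that subset the shares were 67.1% and 64.2% for CACCC and 67.7% and 66.3% for GGGCGG, closer than over all promoters. For TATAAA they were 7.19% and 5.92%, the opposite order to that over all promoters, and for TGACTCA 4.53% and 3.25%.

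In cells given the Klf4 plasmid the dense windows held more peaks and more covered sequence, as did the genome as a whole. They held 10361 Klf4 peaks covering 7.75 Mb, against 9226 covering 6.22 Mb with the empty vector. The ratio of Klf4 to empty vector peaks was 1.12 (1.09 to 1.15, from the Wilson interval of the Klf4 share of the peaks), and 1.28 over all windows. The ratio of covered sequence was 1.25, and 1.28 over all windows. The Klf4 list is the longer one, and when it was shortened to the number of empty vector peaks by keeping its highest −log10 p-values, the peak ratio in dense windows turned to 0.929 while that of covered sequence was 1.12. Over all windows the shortened list gave a covered sequence ratio of 1.10, and its peak ratio is 1 by construction. With peaks of at least 500 bp only, 31 windows were dense and the peak ratio was 0.949. Peaks per window ranged from 2 to 27 with a median of 10 in the Klf4 list. There were more Klf4 than empty vector peaks in 615 windows (57.9%), as many in 224 and fewer in 224 (21.1%). Covered sequence was greater with Klf4 in 859 (80.8%) and smaller in 204 (19.2%).

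**Figure D4:**
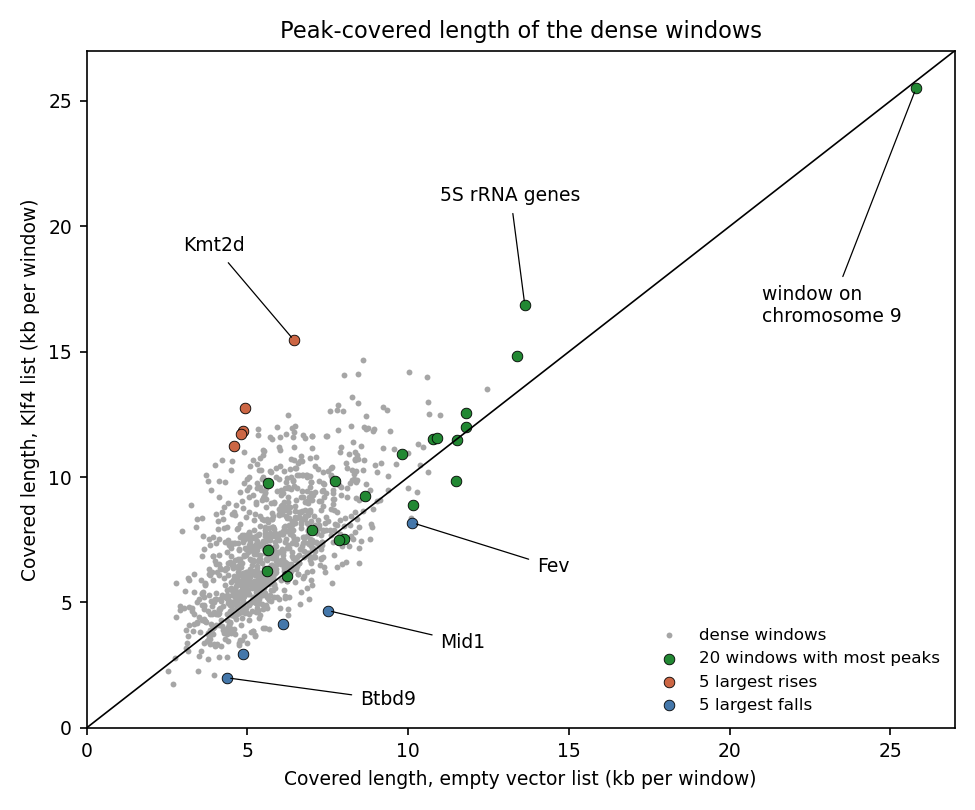
Base pairs covered by Klf4 peaks against base pairs covered by empty vector peaks in each of the 1063 dense windows, both axes in kb per window, with a line at equal cover. Green points are the 20 windows with most peaks, red the 5 largest rises and blue the 5 largest falls; 859 points lie above the line and 204 below it.

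The ratio depended on which list classed the windows. The peak ratio was 1.30 in windows with 1 or 2 empty vector midpoints, 1.26 with 3 or 4, 1.22 with 5 to 7, 1.13 with 8 or 9 and 1.07 with 10 or more. Chosen by the Klf4 list, the order of the ratios was the opposite, from 1.05 in the lowest of the same classes through 1.20, 1.35 and 1.5 to 1.70 in the highest. The ratio of covered sequence was 1.24, 1.24, 1.26, 1.26 and 1.21 across the classes of the empty vector count, and 1.04, 1.16, 1.32, 1.47 and 1.65 across those of the Klf4 count. Choosing windows by a count affects a ratio that holds the same count, its part in these orders was not tested, and neither order is read as a property of dense chromatin.

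**Figure D5:**
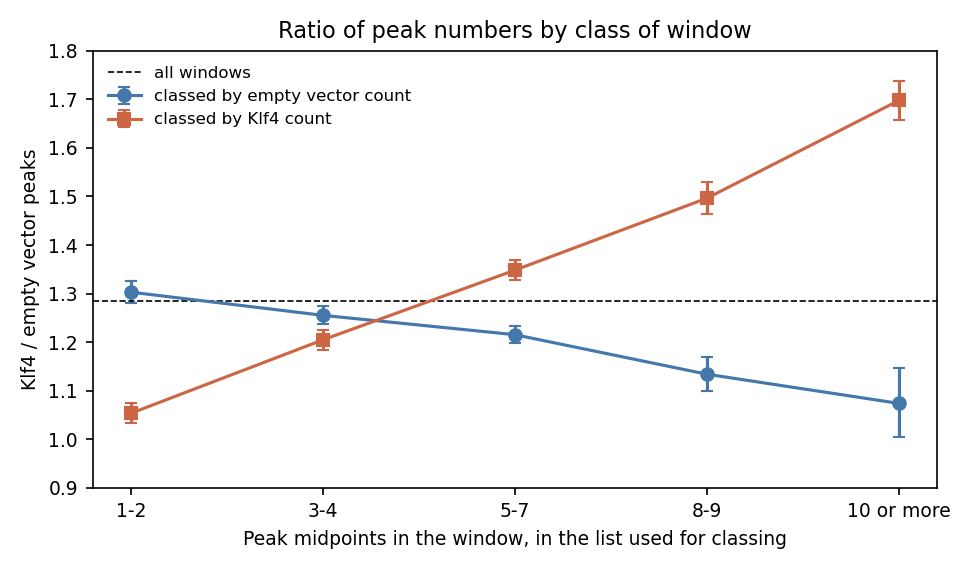
Ratio of Klf4 to empty vector peak numbers by the number of midpoints in a window, with windows classed by the empty vector list (circles) or the Klf4 list (squares), 95% intervals from the Wilson interval of the Klf4 share, and the ratio over all windows (1.28) as a dashed line. The peak ratio runs from 1.30 down to 1.07 when the empty vector list sets the classes and from 1.05 up to 1.70 when the Klf4 list does.

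Most dense windows were also dense in the Klf4 list: 924 of 1063 (86.9%, 84.8 to 88.8) held 8 or more Klf4 midpoints. That share was 11.5% over all windows with a peak and 37.2% over the 6187 windows with 5 to 7 empty vector midpoints, and since the rule used the empty vector counts it is given as a description. The 924 were 22.3% of the 4142 windows dense in the Klf4 list. By covered sequence, 179 dense windows (16.8%) were at least 1.5-fold higher with Klf4, against 22.3% of all windows and 19.9% of windows with 5 to 7 midpoints. Those at least 1.5-fold lower numbered 4 (0.376%), against 7.34% and 2.21%. The part of the number of peaks in a window in these shares was not tested. The median log2 ratio of covered sequence, after adding 500 bp to both values, was 0.25 in dense windows, 0.21 in windows with 5 to 7 midpoints and 0.12 in all, and it ranged from −0.96 to 1.32 over the dense windows.

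Peak by peak, 84.7% of the empty vector peaks in dense windows overlapped a Klf4 peak, against 80.9% elsewhere. Of the Klf4 peaks there, 74.9% overlapped an empty vector peak, against 62.3% elsewhere. This left 1414 peaks of the empty vector list alone and 2601 of the Klf4 list alone, the latter in 913 windows with a median of 2. Of peaks found in the Klf4 list alone 88 (3.45%) overlapped a promoter, and of those in the empty vector list alone 18 (1.30%). Elsewhere the shares were 3.5% and 1.01%.

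The largest gain in covered base pairs with Klf4 was at chr15:98850001-98900000, with 9 peaks in both lists and 6452 bp with the empty vector against 15451 bp with Klf4. It contains Kmt2d, a histone H3 lysine 4 methyltransferase gene, Rhebl1 and Dhh. The increase came with broader peaks: 3 Klf4 peaks there were 3241, 3075 and 3143 bp wide, while the widest empty vector peak was 1681 bp. The window of Lgr6, Ptpn7 and Arl8a had 8 and 12 peaks over 4913 and 12755 bp. That of Ccar2, Pdlim2 and Sorbs3 had 8 peaks in both lists over 4862 and 11825 bp, and that of Gpr84, Zfp385a and the integrin gene Itga5 had 8 and 10 over 4789 and 11707 bp. The window of Nfix, a nuclear factor I gene, and Lyl1 had 8 and 17 peaks over 4588 and 11224 bp, and 11 of the 17 overlapped no empty vector peak.

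The 4 windows at least 1.5-fold lower with Klf4 were those of Mid1, Btbd9, Tead1 and Pbx3. The window of Btbd9 on chromosome 17 had 10 empty vector and 4 Klf4 peaks over 4353 and 1997 bp. All 4 Klf4 peaks there overlapped an empty vector peak. The 6 peaks of the empty vector list alone had −log10 q from 1.36 to 6.40, and the other empty vector peaks from 4.41 to 21.7. The window of Mid1, a gene that spans the pseudoautosomal boundary of chromosome X in laboratory mice, had 8 and 6 peaks over 7494 and 4678 bp. Tead1, a DNA-binding partner of YAP, had 9 and 5 peaks over 4851 and 2947 bp, and Pbx3, a homeobox gene, had 8 and 5 over 3946 and 2095 bp. Among the 5 largest losses in base pairs that stayed within 1.5-fold were those at Cdk15, from 6098 to 4131 bp, and in the window of Cdk5r2, Fev and Cryba2, from 10133 to 8177 bp.

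For the gene groups, 1 dense window was taken per gene, that with the most empty vector peaks. None of those of the endocrine transcription factors, the granule genes or the immediate early genes passed 1.5-fold in either direction, against 16.8% higher and 0.376% lower over all dense windows. Over all dense windows 80.8% had more and 19.2% less cover with Klf4, and the median log2 ratio was 0.25. The 6 transcription factor windows held 54 and 56 peaks, with a median log2 ratio of cover of 0.04, and 3 had more and 3 less cover with Klf4. The 7 granule gene windows held 61 and 64 peaks, with a median of 0.05, 4 with more and 3 with less. The 7 windows of glucose sensing, excitation and exocytosis held 64 and 77 peaks, with a median of 0.16, 6 with more and 1 with less. Of these only that of Kcnh2 passed 1.5-fold, from 5392 to 9621 bp, a log2 ratio of 0.78. The 8 immediate early gene windows held 69 and 82 peaks over 61751 and 74944 bp, with a median of 0.31, 7 with more and 1, that of Fos, with less. The lists were not compared with each other or with other windows by a test.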

How the data were processed

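The 8 ATAC-seq libraries fall into 2 groups of 4 by the labels, and the authors deposited 1 merged broad peak list per group, so each value below has no replicate. The submitters' processing notes name Bowtie2, MACS2, DiffBind, FastQC and the build mm10, without versions; how the libraries were merged, duplicate handling and read shifting are not given in the sources used here. An mRNA-seq kit is named for library preparation in the labels, which was not resolved. For each peak the authors deposited a score, which was not used, a fold enrichment (a ratio to local background), and p- and q-values as −log10. Fold enrichments were used to describe peaks within a list. Merged lists hold no read counts, so depth and its precision are unknown, and more weak peaks pass a q-value in a deeper list.

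A peak belonged to the 50 kb window of its midpoint. Covered length was clipped to the window, and log2 ratios were taken after adding 500 bp, with 1.5-fold as the size called. Genes came from the RefSeq table of GRCm38.p6, and a gene was in a window if it overlapped it by 1 bp or more. Promoter and miRNA sequences came from RefSeq tables of the same build; chromosome 18 has no promoter sequence in the table used and was left out of promoter measures. Shares have 95% Wilson intervals. Named were the 20 densest windows, the 5 longest runs, the 5 largest rises and falls, and the windows of listed genes; the noncoding genes, the 4 windows called lower and the printed sequences were chosen after their values were seen. The members and gene lists were chosen with earlier results of these data known. The symbol pattern for histone genes was chosen after the planned prefix found no gene, Ero1b was matched through an older symbol, and Ctrc was not found. A few genes of the lists and windows are not reported here. Python 3.11.15 with numpy 2.4.6, pandas 2.3.3, scipy 1.17.1 and matplotlib 3.10.9 were used. Tested on simulated data, the window step found 200 of 200 planted windows and gave the right values in all 2000 simulated windows. Alternatives changed the midpoint minimum, window width and origin, peak filters, the list that chose the windows and how genes were assigned.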

Additional observations from a re-analysis of the deposited data

How the results depend on the processing

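The number of dense windows, the Klf4 to empty vector ratios of peaks (1.12) and of covered sequence (1.25), the share of windows dense in both lists (86.9%) and the share of coding genes (8.23%) were recomputed under each alternative. A ratio or share counted as moved when it left its 95% interval, covered sequence when it moved by over 5%, and the number of windows when it changed by over 1.5-fold. Of 61 values 23 stayed within these limits, 36 moved and 2 reversed, and the cause was not tested. With a minimum of 6 midpoints there were 4240 windows, a peak ratio of 1.17 and 27.4% of genes, and with 10 there were 156 windows, 1.07, 80.8% dense in both lists and 1.34% of genes. Windows of 25 kb with 4 or more midpoints numbered 5204, with ratios of 1.05 and 1.17, 79.2% and 21.5%. Windows of 100 kb with 16 or more numbered 187, with a peak ratio of 1.18, 94.7% and 2.67%. Starting windows at 25 kb gave 84.7% and 7.51%. With −log10 q of at least 5 there were 186 windows, ratios of 1.04 and 1.15, 78.5% and 2.00%. With peaks of at least 500 bp there were 31 windows, the peak ratio reversed to 0.949 (277 against 292 peaks), covered sequence was 1.03, and the shares were 71.0% and 0.430%. With the same number of peaks from both lists the peak ratio reversed to 0.929, covered sequence was 1.12 and 59.9% were dense in both lists. Windows chosen in the Klf4 list numbered 4142, with ratios of 1.59 and 1.55, 22.3% and 27.1%. Counting a peak in each window it overlaps gave 8.85% of genes, and assigning genes by midpoint gave 5.83%. Chosen after seeing the data, leaving out windows of 12 or more midpoints (1043 left) or the chromosome 15 segment (1032 left) kept all 5 values within the limits. No paired analysis was possible because each group has 1 merged list, and for the same reason no library could be left out.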

Other observations

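Outside the chromosomes of the rule, 4 windows held 8 or more empty vector midpoints. The unplaced sequence JH584304.1 had 16 empty vector and 14 Klf4 midpoints in 1 window, and 3 adjacent windows of chromosome Y, from chrY:90700001 to chrY:90850000, had 9 and 7, 10 and 10, and 12 and 11.

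Among windows that held 8 or more Klf4 midpoints and fewer empty vector midpoints than the rule asks, some of the highest Klf4 counts were at genes of chromatin, neural and muscle functions, given as values chosen for their Klf4 count. The window of Chd5, a chromatin remodeller gene, and Kcnab2 had 5 empty vector and 16 Klf4 midpoints, over 2106 and 9776 bp. The window of Kdm4b, a histone demethylase gene, and Ptprs had 5 and 16, over 3244 and 9551 bp. The window of Grin2c, an NMDA receptor subunit gene, and Tmem104 had 7 and 15. The window of Klc3, the muscle creatine kinase gene Ckm and Mark4 had 5 and 15.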
